A study of Mus musculus with 8 samples.

Results

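Peaks at the promoters of the mitochondrial protein import genes were examined in mouse epidermis. The set was chosen by name: every protein-coding gene of the mm10 RefSeq annotation whose symbol starts with Timm or Tomm, together with Pam16, Dnajc19, Grpel1, Hspa9, Hspd1, Hspe1, Chchd4, Gfer, Pmpca, Pmpcb, Samm50, Mtx1 and Mtx2. It holds 39 of 21000 protein-coding genes. The rule uses symbols alone and no measured value, although earlier results of these data were known when it was set. All samples were total epidermis of wildtype mice at postnatal day 0.5, separated from the dermis of the back skin, and per the study's methods its mice were of a mixed C57Bl/6J and CD-1 background. The labels list 8 samples and 6 antibodies. Lists of peaks were analysed for 4 of these: the histone acetyltransferase MOF (ChIPseq), the transcription factor Rfx2, and the histone marks H3K4me3 and H3K27ac (Cut&Run, in which an antibody guides a nuclease to its target). Each list came from 1 library, so no value below has a replicate error and no test between groups was possible. Total epidermis holds several cell types, and whether a peak is present in all of them cannot be told from these lists.

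Nearly all mitochondrial proteins are made in the cytosol and must be threaded through the outer and inner membranes. The TOM complex is the entry gate of the outer membrane. From there the SAM complex inserts barrel proteins into the outer membrane, the MIA pathway folds small proteins of the intermembrane space by oxidation, and the small TIM chaperones carry hydrophobic proteins across that space. The TIM22 complex inserts carriers into the inner membrane, whereas the TIM23 complex and its ATP-driven motor pull proteins with a presequence into the matrix, where a peptidase removes the presequence and chaperonins fold the product. MOF acetylates lysine 16 of histone H4 in chromatin, H3K4me3 marks active promoters, H3K27ac marks active promoters and enhancers, and Rfx2 is best known as a regulator of ciliary genes.

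A promoter was taken as 1 kb upstream to 100 bp downstream of a transcription start site (TSS), and a gene counted as having a peak of a list if 1 bp or more of it fell inside. H3K4me3 was present at 37 of 39 import genes (94.9%, exact 95% interval 82.7 to 99.4), and in the whole annotation at 60.7% of genes. H3K27ac was likewise present at 37 of 39 (94.9%), and at 50.1% of all genes. The genes with H3K4me3 were the same 37 genes as those with H3K27ac, and the remaining members, Tomm20l and Timm8a2, had no peak in any list. Thus the import promoters were nearly uniform for the histone marks.

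MOF divided the set. A MOF peak lay at 19 of 39 import promoters (48.7%, 32.4 to 65.2), and at 26.6% of all promoters. All 19 carried H3K4me3 and H3K27ac as well, a combination that 24.1% of all genes had. The other 18 genes with H3K4me3 (46.2%, 30.1 to 62.8) had no MOF peak, against 34.9% of all genes. When only genes with H3K4me3 were considered, MOF was present at 19 of 37 import genes (51.4%, 34.4 to 68.1), and the share over all genes with H3K4me3 was 42.4%, which lies inside that interval. Rfx2 was present at 1 import gene, Tomm40 (2.56%, 0.0649 to 13.48), and at 1.41% of all genes. The intervals cover counting error over genes only.

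**Figure D1:**
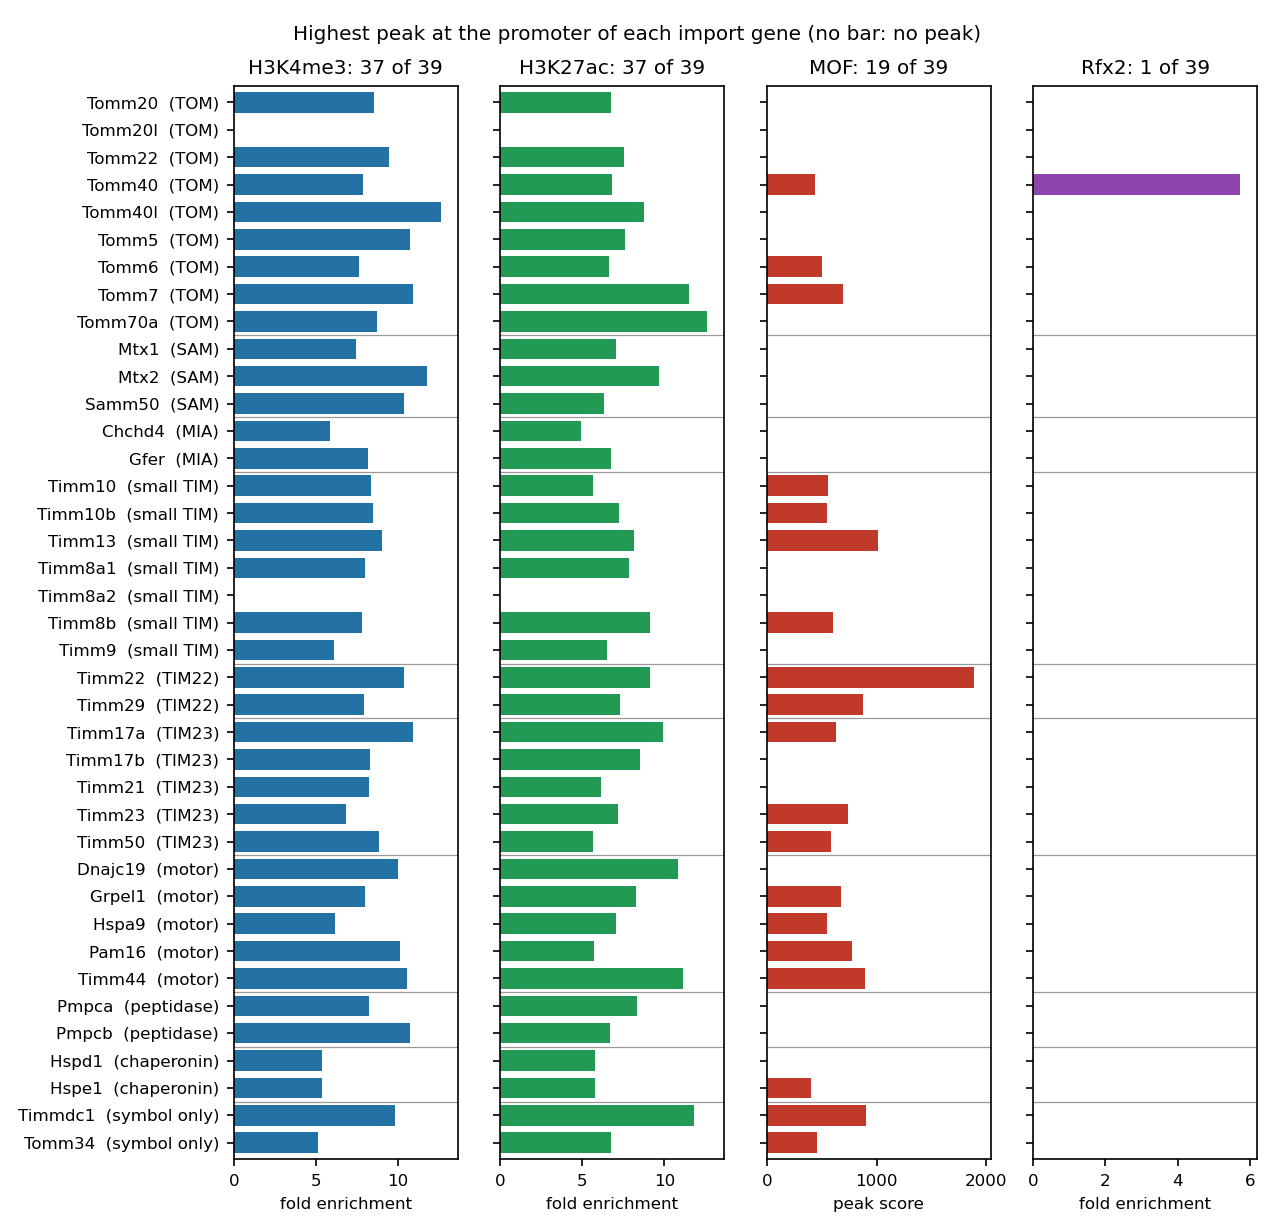
Height of the highest peak of each list at the promoters of the 39 import genes, ordered by role. The x axes give the fold enrichment over background for H3K4me3, H3K27ac and Rfx2 and the peak score for MOF, and a missing bar means no peak. The histone marks miss only Tomm20l and Timm8a2, whereas MOF is present at 19 genes and Rfx2 at Tomm40.

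In the TOM complex, 3 of 9 genes had MOF, namely Tomm40, Tomm6 and Tomm7, while 8 of 9 had both histone marks. Tomm40, which encodes the channel itself, had a MOF score of 437, the score being a number that the peak caller gives each region and that ranks regions within this list. That score stood at percentile 16.1 of the MOF peaks at promoters, although the region was 1633 bp wide. Its H3K4me3 peak had a fold enrichment of 7.90 over 1937 bp, and its H3K27ac peak of 6.83 over 1484 bp. The small subunit Tomm7 had a MOF score of 693 over 666 bp, with H3K4me3 at 10.9-fold over 1410 bp and H3K27ac at 11.5-fold over 665 bp, the third highest of the set. Tomm6, another small subunit, had a MOF score of 501 over 1519 bp, with H3K4me3 at 7.65-fold over 1883 bp and H3K27ac at 6.64-fold over 915 bp.

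The remaining TOM genes with histone marks had no MOF peak at the promoter. They are the receptors Tomm20, Tomm22 and Tomm70a, the small subunit Tomm5, and Tomm40l, a paralogue of the channel. Tomm40l had the highest H3K4me3 of the 39 genes (12.6-fold over 1180 bp), with H3K27ac at 8.78-fold over 532 bp. Tomm5 had H3K4me3 at 10.7-fold over 1225 bp and H3K27ac at 7.62-fold over 964 bp. The receptors followed below these values of H3K4me3. Tomm22 had 9.48-fold over 1576 bp, with H3K27ac at 7.55-fold over 583 bp. Tomm70a had 8.73-fold over 1697 bp, with the highest H3K27ac of the set (12.6-fold over 1171 bp). Tomm20 had 8.52-fold over 1776 bp, with H3K27ac at 6.74-fold over 1312 bp. Each of these MOF-free TOM genes thus had a higher H3K4me3 fold enrichment than Tomm40 and Tomm6, and of the TOM genes with MOF only Tomm7 was in their range. The nearest MOF peak lay 1973 bp from the TSS of Tomm70a, 10625 bp from that of Tomm20, 24388 bp from Tomm40l, 29143 bp from Tomm5 and 56275 bp from Tomm22.

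The Rfx2 peak at Tomm40 is printed here because it is the only Rfx2 peak at an import promoter. It spanned chr7:19715901-19716169 (mm10, plus strand shown), had a fold enrichment of 5.74 and a −log10 q-value of 3.37, and stood at percentile 20.5 of the Rfx2 peaks at promoters. It lay 472 to 740 bp upstream of the TSS, outside every exon of Tomm40, and overlapped exon 1 of a predicted noncoding gene on the other strand, Gm38955. The whole peak lay inside the MOF region, and 170 of its 269 bp fell in the inner block that the MOF list gives for that region. The capitals mark the letters CCGGAAGT, the core bound by ETS factors. The full consensus of the X-box, the motif of RFX factors, had no match in the peak. Partial or looser forms of the X-box were not searched, and matches in the other Rfx2 peaks were not counted.
Rfx2 peak at Tomm40: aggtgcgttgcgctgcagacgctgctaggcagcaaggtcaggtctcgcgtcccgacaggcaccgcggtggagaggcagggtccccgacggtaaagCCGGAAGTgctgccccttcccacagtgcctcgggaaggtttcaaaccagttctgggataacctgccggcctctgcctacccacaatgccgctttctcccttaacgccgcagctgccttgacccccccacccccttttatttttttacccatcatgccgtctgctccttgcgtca

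The outer membrane machinery outside TOM had no MOF peak at any promoter. All 3 SAM genes lacked one: Samm50, the barrel that inserts other barrels, and its partners Mtx1 and Mtx2. H3K4me3 at Mtx2 was 11.8-fold over 1411 bp, the second highest of the set, H3K27ac was 9.65-fold over 883 bp, and the nearest MOF peak was 144056 bp away. Samm50 had H3K4me3 at 10.4-fold over 1236 bp and H3K27ac at 6.31-fold over 871 bp, with MOF no closer than 19905 bp. Mtx1 had H3K4me3 at 7.45-fold over 1827 bp and H3K27ac at 7.03-fold over 932 bp, with MOF 8979 bp away. In the MIA pathway, neither Chchd4, the oxidoreductase that traps incoming proteins, nor Gfer, the oxidase that recycles it, had MOF. Chchd4 had a low and broad H3K4me3 peak (5.85-fold, 2115 bp) and the lowest H3K27ac of the set (4.89-fold, 2154 bp), with the nearest MOF peak 42217 bp away. At Gfer, H3K4me3 was 8.17-fold over 1444 bp, and the H3K27ac peak (6.75-fold, 450 bp) ended 106 bp upstream of the TSS, with MOF 11388 bp away.

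Among the small TIM chaperones, 4 of 7 had MOF. Timm13 had a score of 1015 (percentile 84.3) over 640 bp, with H3K4me3 at 9.04-fold over 1190 bp and H3K27ac at 8.17-fold over 1148 bp. Timm8b had 603 over 965 bp, with H3K4me3 at 7.82-fold over 1726 bp and H3K27ac at 9.14-fold over 951 bp. Timm10 had 561 over 737 bp, with H3K4me3 at 8.38-fold over 1521 bp and H3K27ac at 5.63-fold over 1267 bp, among the lowest of the set. These proteins act as hexamers in the intermembrane space, and the MOF state of partners was mixed. Timm10b had a MOF score of 552 over 1367 bp, with H3K4me3 at 8.501-fold over 1581 bp and H3K27ac at 7.25-fold over 1244 bp. Timm10 and Timm10b, which work together with Timm9, both had MOF, as did Timm13 and its partner Timm8b. Timm9 had no MOF peak within 167481 bp, and Timm8a1, the other partner of Timm13, had none within 59188 bp. Timm9 and Timm8a1 both had the histone marks, with H3K4me3 at 6.09-fold over 2419 bp and H3K27ac at 6.501-fold over 1101 bp for the former. For Timm8a1, H3K4me3 was 8.03-fold over 1585 bp and H3K27ac 7.86-fold over 985 bp. Timm8a2, a paralogue of Timm8a1, had no peak in any list, and the nearest H3K4me3 peak lay 70149 bp from its TSS.

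TIM22 genes both had MOF. Timm22, the channel of the complex, had the highest MOF score of the set, 1887, at percentile 98.8 of the MOF peaks at promoters and 872 above the next member, Timm13. The region ran over 947 bp, from 280 bp upstream to 666 bp downstream of the TSS. Its H3K4me3 was 10.4-fold over 1233 bp and its H3K27ac 9.15-fold over 887 bp. Timm29, which joins the complex in animals, had a MOF score of 876 (percentile 75.4) over 715 bp, with H3K4me3 at 7.94-fold over 1819 bp and H3K27ac at 7.31-fold over 1288 bp.

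In the TIM23 complex, 3 of 5 genes had MOF. The channel subunit Timm23 had a score of 736 over 583 bp, with H3K4me3 at 6.85-fold over 2067 bp and H3K27ac at 7.17-fold over 1220 bp. Timm17a, which forms the pore with it, had 631 over 676 bp, with H3K4me3 at 10.95-fold over 1177 bp and H3K27ac at 9.91-fold over 790 bp. The presequence receptor Timm50 had 584, with H3K4me3 at 8.88-fold over 1326 bp and H3K27ac at 5.63-fold over 959 bp. At Timm50 the MOF region was the widest of the set (1635 bp), while its inner block held 208 bp and did not cover the TSS. Timm17b, the paralogue of Timm17a, and Timm21, which links the complex to the respiratory chain, had none. At Timm17b, H3K4me3 was 8.33-fold over 1545 bp and H3K27ac 8.51-fold over 991 bp, with MOF 2441 bp away. At Timm21, H3K4me3 was 8.26-fold over 1642 bp and H3K27ac 6.12-fold over 1330 bp, with MOF 15211 bp away. The paralogues Timm17a and Timm17b thus differed in MOF in these lists.

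The import motor had MOF at 4 of 5 genes. Timm44, which anchors the motor at the channel, had a score of 892 (percentile 76.6) over 565 bp, with H3K4me3 at 10.6-fold over 1335 bp and H3K27ac at 11.1-fold over 781 bp. Its regulator Pam16 had a score of 777. The nucleotide exchange factor Grpel1 had 677 over 589 bp, with H3K4me3 at 8.03-fold over 1647 bp and H3K27ac at 8.25-fold over 1145 bp. The matrix Hsp70, Hspa9, which drives the pull, had 548 over 1534 bp, with H3K4me3 at 6.19-fold over 1967 bp and H3K27ac at 7.04-fold over 1160 bp. Dnajc19, a J-protein of the inner membrane, was the exception, with H3K4me3 at 10.02-fold over 1314 bp, H3K27ac at 10.8-fold over 428 bp and the nearest MOF peak 60287 bp away. Considered together, TIM22, TIM23 and the motor had MOF at 9 of 12 genes (75%, 42.8 to 94.5), whereas TOM, SAM and MIA had it at 3 of 14 (21.4%, 4.66 to 50.8). Beside these shares stand 26.6% of all genes and 42.4% of genes with H3K4me3. The other roles were left out of this split: the small TIM chaperones had MOF at 4 of 7 genes, the peptidase at 0 of 2 and the chaperonins at 1 of 2. With the small TIM genes added, TOM, SAM and MIA came to 7 of 21 (33.3%). This grouping of roles was made after the values were seen, and it was not tested. The median H3K4me3 fold enrichment was 8.61 in the former and 8.73 in the latter.

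Both subunits of the presequence peptidase, Pmpca and Pmpcb, lacked MOF. Pmpcb had the narrowest H3K4me3 peak of the set (965 bp, 10.8-fold) and H3K27ac at 6.69-fold over 439 bp, with the nearest MOF peak 18691 bp away. Pmpca had H3K4me3 at 8.24-fold over 1739 bp and H3K27ac at 8.36-fold over 1281 bp, and its nearest MOF peak was 37128 bp away. Of the chaperonins, Hspe1 was counted for MOF and Hspd1 was not. Finally, 2 genes belong to the set by symbol alone, and both had MOF. Timmdc1, an assembly factor of respiratory complex I, had a score of 900 (percentile 77.0) over 1534 bp, with H3K4me3 at 9.86-fold over 1540 bp and H3K27ac at 11.8-fold over 716 bp. Tomm34, a cytosolic co-chaperone, had a MOF score of 455 over 560 bp, the lowest H3K4me3 of the set (5.11-fold over 1226 bp) and H3K27ac at 6.74-fold over 958 bp.

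**Figure D2:**
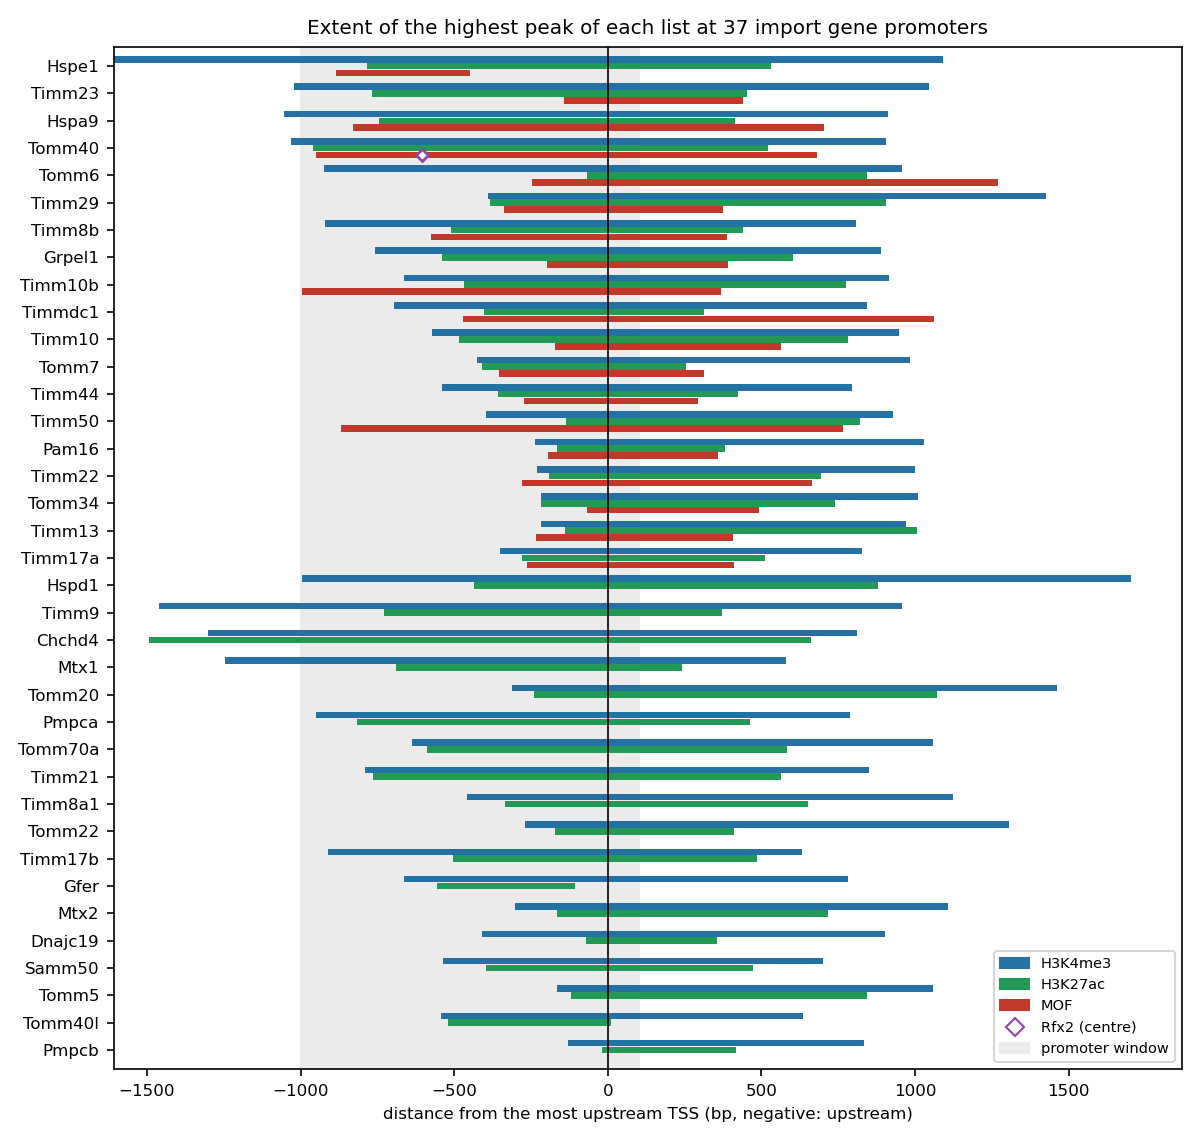
Extent of the highest H3K4me3, H3K27ac and MOF peak at the 37 import genes with histone marks, as distance from the most upstream TSS in bp, with genes sorted by MOF and then by H3K4me3 width. The grey band is the promoter window. MOF covers the TSS at 18 of 19 genes, the exception being Hspe1, and H3K4me3 covers it at all 37.

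The MOF regions covered the TSS at 18 of 19 genes (94.7%). Over all genes with MOF at the promoter this held for 4844 of 5591 (86.6%). All 19 overlapped the H3K4me3 peak of the same gene. In 13 of 19 the MOF region lay wholly within the H3K4me3 peak, and for the inner block this was 17 of 19. The inner block covered the TSS at 13 of 19. Shares over all genes were not computed for these overlaps with H3K4me3 or for inner blocks covering the TSS. The region widths fell between 436 and 1635 bp with a median of 715 bp, against a median of 1008 bp over all genes with MOF at the promoter. MOF scores of the set had a median of 631, close to the 653 of all genes, and ranged from 405 at Hspe1 to 1887 at Timm22. The stretch of a MOF region beyond its inner block was often long, for example at Tomm40 and Grpel1, where the block held 200 bp.

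H3K4me3 reached further into the genes than away from them. The median reach was 928 bp downstream and 572 bp upstream of the TSS, and downstream was the longer side in 28 of 37 genes. The H3K27ac peak was narrower than the H3K4me3 peak in 36 of 37 genes and lay wholly within it in 35 of 37. The exception in width was Chchd4. Over all genes the median width was 1307 bp for H3K4me3 and 901 bp for H3K27ac, against 1576 bp and 964 bp in the set. The H3K4me3 summit lay downstream of the TSS in 64.9% of the set and in 64.7% of all genes with the mark. Shares over all genes were not computed for the longer side or for peaks lying within one another.

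Import genes with and without MOF had similar histone marks. The median H3K4me3 fold enrichment was 8.38 in the 19 genes with MOF and 8.43 in the 18 without, and the median width was 1540 bp and 1580.5 bp. For H3K27ac the medians were 7.25-fold and 7.29-fold. Across all genes with H3K4me3 the H3K4me3 peak was wider where MOF was present (1454 bp against 1184 bp) and H3K27ac was higher (7.24-fold against 6.39-fold). The H3K4me3 summit lay downstream of the TSS in 15 of 19 import genes with MOF and in 9 of 18 without. Over all genes with H3K4me3, 64.7% of summits lay downstream, 63.8% where MOF was present and 65.4% where it was absent. With 1 list per antibody these differences in medians were not tested.

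**Figure D3:**
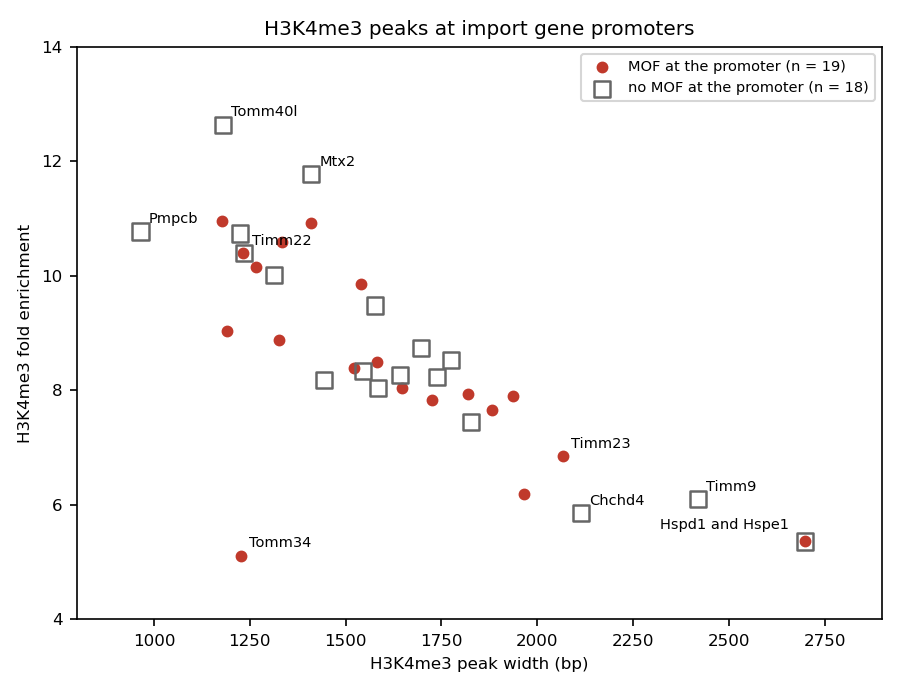
H3K4me3 fold enrichment against H3K4me3 peak width in bp at 37 import genes, with filled circles for genes with MOF and open squares for genes without. Narrow peaks are high and wide peaks are low, from Pmpcb (965 bp) to Hspd1 and Hspe1 (2700 bp, one shared peak). Genes with and without MOF are interspersed, and Tomm34 lies apart from the trend.

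Wide H3K4me3 peaks were low peaks within the set. Spearman's rho between fold enrichment and width was -0.79 over the 36 H3K4me3 peaks of the import genes and -0.17 over the 11720 peaks at promoters of all genes. Both measures come from the same peak of the same library, so the coefficient is a description. The lowest fold enrichments were at Tomm34, at the shared peak of Hspd1 and Hspe1 (5.36-fold) and at Chchd4, and of these only Tomm34 was narrow (1226 bp). H3K4me3 and H3K27ac fold enrichment had a rho of 0.46 in the set and of 0.45 over all genes.

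Curated RefSeq transcripts, coding and noncoding, were searched for a gene starting on the opposite strand within 1 kb. Such a gene was found at 15 of 39 import genes (38.5%, 23.4 to 55.4). At 10 of these the genes pointed away from each other without overlap, and at the others the 5′ ends overlapped. The shares that follow count both arrangements. For all protein-coding genes the share was 13.9%, and for those with H3K4me3 it was 21.2%. With predicted transcripts included, Tomm40 (35 bp from Gm38955) and Timm10 were added, which gave 17 of 39 (43.6%) against 19.7% of all genes. At 14 of the 15 curated pairings, counted from each member, the member and its partner shared 1 H3K4me3 peak (93.3%). Over all genes this held for 90.3% of such pairings, and over genes with H3K4me3 for 97.0%. All 15 members in these pairings had H3K4me3. The closest curated starts were Timm10b and Arfip2 (29 bp apart), Pmpca and Entr1 (32 bp), Timm8b and Sdhd (52 bp), Timm23 and Parg (58 bp), Timm17b and Pqbp1 (67 bp) and Gfer and Noxo1 (78 bp). Sdhd encodes a membrane subunit of respiratory complex II, so that pair joins import and electron transport. Wider gaps separated Timm9 from 2700049A03Rik (173 bp), Chchd4 from Tmem43 (284 bp), Grpel1 from 2210406O10Rik (331 bp) and Timm21 from Fbxo15 (592 bp).

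In the remaining pairs the 5′ ends overlapped: Timm29 with Yipf2 by 109 bp, Hspd1 with Hspe1 by 95 bp, Tomm6 with the noncoding Tomm6os by 776 bp and Tomm40l with Apoa2 by 950 bp. The last of these was the pair without a shared H3K4me3 peak. The MOF state was equal in both partners in every pair but Hspd1 and Hspe1, that is in 13 of 15 pairings counted from each member (86.7%). Over all genes it was equal in 95.3% of 2947 pairings, and the windows of such genes overlap, so 1 peak can count for both. MOF was shared by Grpel1, Timm10b, Timm23, Timm29, Timm8b and Tomm6 with their partners. Apart from Hspd1 and Hspe1, it was absent from both genes in the other pairs. Opposite-strand starts within 1 kb, in either arrangement, occurred at 7 of 19 import genes with MOF (36.8%) and at 8 of 18 with H3K4me3 and no MOF (44.4%). Over all genes with H3K4me3 the shares were 29.9% with MOF and 14.9% without.

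Hspd1 and Hspe1 encode Hsp60 and Hsp10, the barrel and the lid of the matrix chaperonin. They shared the widest H3K4me3 peak of the set (2700 bp) and 1 H3K27ac peak (5.75-fold, 1316 bp). The MOF region at chr1:55087263-55087698 had the lowest score of the set (405, percentile 10.2). It lay 450 to 885 bp upstream of the Hspe1 TSS, within the promoter window of Hspe1. Seen from Hspd1 it began 234 bp downstream of the inner TSS, in intron 1 of both Hspd1 transcripts and past the 100 bp at which its window ends. A window of 500 bp on either side of the TSS counted Hspd1 as well, which gave 20 of 39 genes (51.3%) against 27.4% of all genes.

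**Figure D4:**
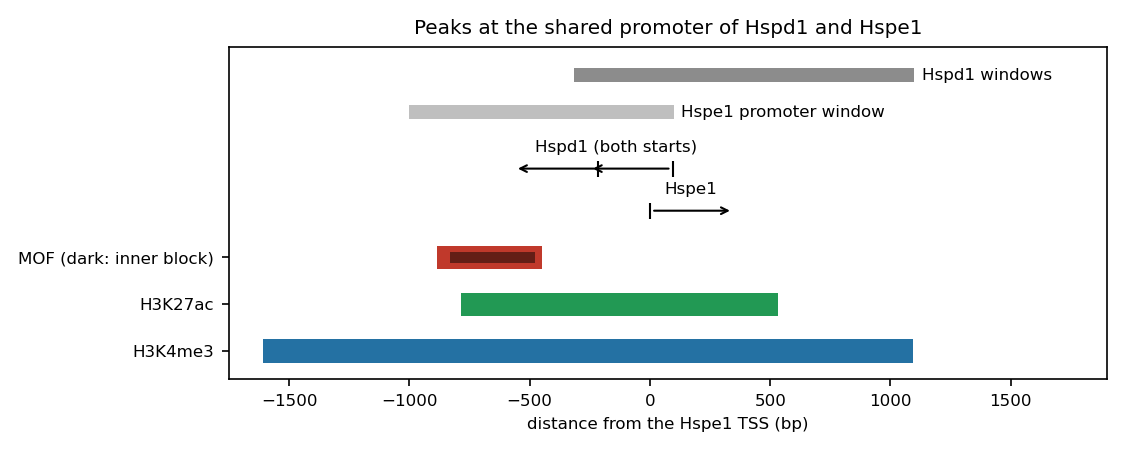
Peaks at the shared promoter of Hspd1 and Hspe1 as distance from the Hspe1 TSS in bp, with arrows for the starts and the direction of each gene and grey bars for the promoter windows. One H3K4me3 peak and one H3K27ac peak span both genes, whereas the MOF region lies 450 to 885 bp to the Hspd1 side of the Hspe1 TSS and outside the Hspd1 windows.

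Promoter sequence was compared for the 35 members in the RefSeq promoter table (mm10, 250 bases before to 50 after the TSS). Hspa9, Timm21, Tomm40l and Tomm7 are not in it. The ETS core CCGGAAGT, searched on both strands, was found in 9 of 35 (25.7%), against 5.87% of 16853 promoters of all genes and 9.17% of those with H3K4me3. It occurred in 5 of 17 import promoters with MOF (29.4%) and in 3 of 16 with H3K4me3 and no MOF (18.8%). Over all genes with H3K4me3 the shares were 12.1% with MOF and 6.90% without. The ninth was Timm8a2, which had no peak in any list. The match nearest to the TSS is shown for each with 11 bases on either side, read so that the capitals run CCGGAAGT, because this was the motif with the widest gap between the set and all genes.
Mtx2, chr2:74825807-74825836, plus strand: tgtcagcgacgCCGGAAGTgcttggtcggc
Pmpcb, chr5:21737133-21737162, plus strand: ggagtcatgacCCGGAAGTacatctccact
Timm10, chr2:84827026-84827055, plus strand: tagacttccttCCGGAAGTgacccacgtgc
Timm10b, chr7:105640469-105640498, minus strand: tcagagtcgccCCGGAAGTaaactctcact
Timm23, chr14:32201921-32201950, plus strand: ctgtgtgcggcCCGGAAGTgggaagcgcga
Timm29, chr9:21592498-21592527, minus strand: gtgagtggagcCCGGAAGTggtcagagctc
Timm8a2, chr14:122034652-122034681, minus strand: cgagccagggaCCGGAAGTgccccacccac
Timmdc1, chr16:38522653-38522682, minus strand: tccgagagcttCCGGAAGTgagccggctgg
Tomm70a, chr16:57121623-57121652, plus strand: gccttctgaccCCGGAAGTggttctcccct

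The match nearest to the TSS began between 80 bases before and 36 bases after it in 8 of these promoters and 213 bases before it at Timm29. Beyond the core the flanks differed from gene to gene. Mtx2, Timm8a2 and Timmdc1 held 2 matches each. The other motifs lay nearer to the background. The Sp1 letters GGGCGG were found in 22 of 35 (62.9%, against 50.7% of all promoters and 71.9% of those with H3K4me3), and CCAAT, the NF-Y box, in 11 (31.4%, against 42.6% of all and 43.5% of those with H3K4me3). AAGATGGC, the YY1 core, was found in Mtx1 and Timm50 (5.71%, against 3.64% of all promoters and 5.16% of those with H3K4me3), in both starting 12 bases into the transcript. The NRF1 letters GCATGCGC were found in Grpel1 and Timm13 (5.71%, against 4.08% of all and 6.07% of those with H3K4me3). TATAAA occurred in 3 promoters (8.57%, against 14.7% of all and 8.35% of those with H3K4me3), the ZNF143 motif in Timm22 alone (2.86% against 0.653% of all and 1.04% of those with H3K4me3), and neither the CRE letters TGACGTCA (2.62% of all promoters) nor an X-box (1.76%) in any. A match is a run of letters and no sign of binding, and matches of different motifs overlapped at 0 places in the import promoters.

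The density of CpG was close in members with and without MOF. The promoters of import genes held a median of 20 CpG in 300 bases, with 20 in those with MOF and 21 in those with H3K4me3 and no MOF, against 14 in all genes and 21 in all genes with H3K4me3. To show this range, the 250 bases upstream of the TSS are given with each CpG in capitals for 3 members: Timm22 with the highest MOF score, Timm8a1 with both histone marks and no MOF, and Tomm20l with no peak. Timm22 (chr11:76406675-76406924, plus strand) held 11 CpG, Timm8a1 (chrX:134541671-134541920, minus strand) held 29 and Tomm20l (chr12:71111178-71111427, plus strand) held 7. Over the 300 bases of the table Timm22 held 14 CpG, and MOF-free promoters lay on either side of it, with 34 at Timm8a1, 11 at Pmpcb and 7 at Tomm5. The Timm22 stretch also carries the ZNF143 motif, which starts 40 bases before the TSS.
Timm22: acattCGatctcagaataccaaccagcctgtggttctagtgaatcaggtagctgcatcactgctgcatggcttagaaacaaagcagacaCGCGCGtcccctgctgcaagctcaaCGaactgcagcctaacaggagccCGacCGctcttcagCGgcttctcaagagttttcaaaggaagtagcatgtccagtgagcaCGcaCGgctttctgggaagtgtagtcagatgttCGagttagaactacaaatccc
Timm8a1: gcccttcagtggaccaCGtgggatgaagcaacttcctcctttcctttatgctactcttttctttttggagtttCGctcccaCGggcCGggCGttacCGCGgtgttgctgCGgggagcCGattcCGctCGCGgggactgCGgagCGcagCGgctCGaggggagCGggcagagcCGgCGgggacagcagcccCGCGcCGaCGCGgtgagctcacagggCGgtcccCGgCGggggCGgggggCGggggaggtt
Tomm20l: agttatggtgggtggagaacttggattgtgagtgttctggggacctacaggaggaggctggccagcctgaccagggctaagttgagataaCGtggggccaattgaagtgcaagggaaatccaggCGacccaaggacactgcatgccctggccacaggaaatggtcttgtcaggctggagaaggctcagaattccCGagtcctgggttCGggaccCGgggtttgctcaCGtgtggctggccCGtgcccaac

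The import genes on chromosome X, Timm8a1 and Timm17b, both had H3K4me3 and no MOF. Among all X-linked genes with H3K4me3, 54 of 415 had MOF (13.0%, 9.93 to 16.6), against 5356 of 12327 autosomal ones (43.4%). Per the study's methods, sex was not a criterion in choosing animals. The sex of the animals behind each of these libraries is not given in the sources used here. The part of the chromosome in the state of these genes was not tested.

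**Figure D5:**
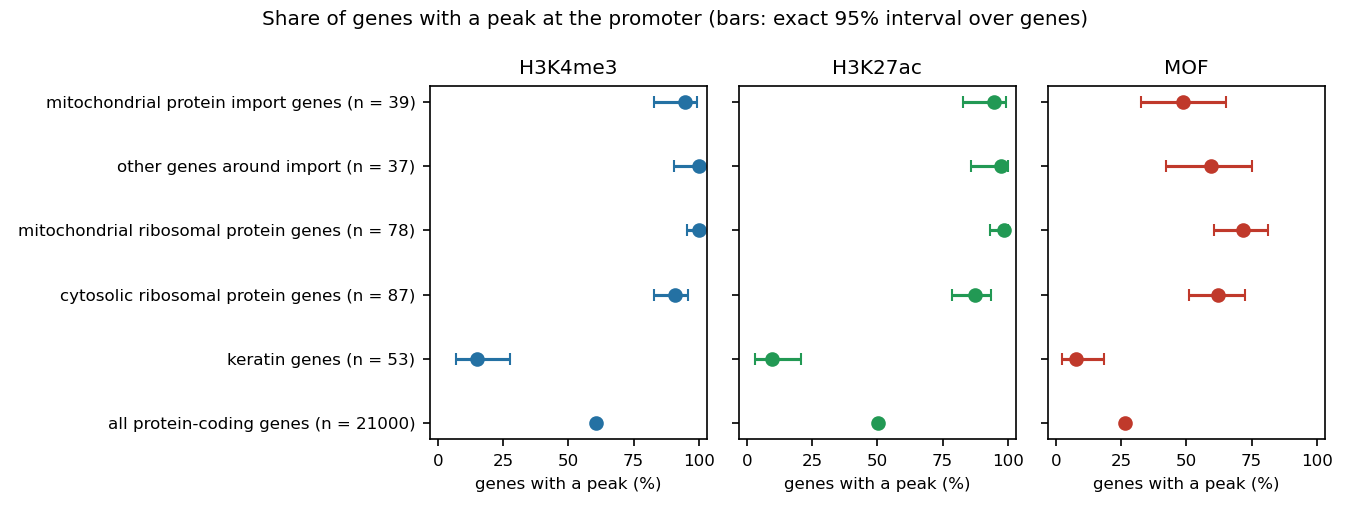
Share of genes with an H3K4me3, H3K27ac or MOF peak at the promoter, in percent, for the import genes, for other genes around the import machinery, for ribosomal protein genes and keratin genes, and for all protein-coding genes. Bars are exact 95% intervals over genes. MOF shares run from 7.55% in keratin genes to 71.8% in mitochondrial ribosomal protein genes, with the import genes at 48.7%.

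The share of MOF among the import genes lay below that of related gene groups, and the histone marks were present at most genes of each. A list of 37 other genes around the import machinery had H3K4me3 at all 37, H3K27ac at 36 (all but Apoo, a cristae junction protein) and MOF at 22 (59.5%, 42.1 to 75.2). That list mixes chaperones, insertases and presequence-processing enzymes with genes of cristae organisation (Immt, Chchd3), metabolite channels (Vdac1) and matrix proteases (Lonp1, Clpp), so its share is not one of import genes alone. The cytosolic chaperone Dnaja1 was the one gene of that list with Rfx2 (6.20-fold), and its MOF score was 1691. Mitochondrial ribosomal protein genes had H3K4me3 at 78 of 78 and MOF at 56 (71.8%, 60.5 to 81.4). Cytosolic ribosomal protein genes, with the Rps6k kinases left out, had H3K4me3 at 79 of 87 and MOF at 54 (62.1%, 51.0 to 72.3). The intervals of all these groups overlap that of the import genes, and the differences were not tested. Keratin genes had MOF at 4 of 53 (7.55%) and H3K4me3 at 8 of 53 (15.1%). As a check of the tissue, H3K4me3 was present at 8 of 10 keratinocyte markers (not Krt1 and Krt10), against 60.7% of all genes. H3K27ac was present at 5 of these 10, against 50.1% of all genes, and MOF at 1, against 26.6%. H3K4me3 was present at 3 of 5 melanocyte, 2 of 5 fibroblast, 1 of 3 endothelial and 0 of 5 immune markers. MOF was present at 1 of 5 melanocyte, 2 of 5 fibroblast, 0 of 3 endothelial and 0 of 5 immune markers.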

How the data were processed

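The authors aligned reads to mm10 with Bowtie2 and called peaks library by library with MACS2, single-end for the MOF ChIPseq and with whole fragments for Cut&Run. The deposited Rfx2, H3K4me3 and H3K27ac lists give each peak's summit, score, fold enrichment (a ratio to background), −log10 p-value and −log10 q-value. The deposited MOF list gives other values: regions with an inner block and a score of unstated scale, used here only to rank regions within that list. With 17546 regions it is longer than the MOF peak set the study counts (whether a filter was left out is not stated), and all MOF shares given here depend on this longer list. Labels attach the H3K4me3 list to the repeat library, whereas its name lacks the mark of a repeat, so its origin among the 2 libraries is uncertain. The study states the reads of each library, and of those behind the 4 lists Rfx2 had the fewest mapped reads. The lists themselves give no read counts, so no peak could be weighed by depth.

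Here peaks were overlapped with promoters of curated RefSeq transcripts (GRCm38.p6, the assembly behind mm10) in Python (3.11.15), with exact Clopper-Pearson intervals from scipy (1.17.1). A gene's highest peak stands for it. On simulated data, overlap calls differed from bedtools (2.31.1) at 0 of 21000 genes. Members, by their symbols, and lists were chosen with earlier results of these data known. Members without H3K4me3 were named, and heights and widths were given for those with Rfx2, with H3K4me3 and no MOF, with an opposite-strand start within 1 kb, or at either end of MOF score, width or fold enrichment, and other genes named were chosen after their values were seen. The ZNF143 motif and the X-box were searched by consensus. The H4K16ac and H3K4me1 samples were not analysed here.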

Additional observations from a re-analysis of the deposited data

How the results depend on the processing

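Of 74 alternative values for 21 results, 64 stayed within 1.5 times the count or within the range of the value reported, and 10 did not. With only the stronger 50% of peaks, MOF was left at 12 of 39 import genes (30.8%, against 16.4% of all genes), MOF with both marks at 11 and Rfx2 at 0. Rfx2 was also at 0 when a peak had to cover the TSS. Requiring the centre of a peak in the window gave 18 genes for H3K4me3 (46.2%, against 27.5% of all genes), 22 for H3K27ac (56.4% against 29.0%) and 5 for MOF with both marks (12.8% against 7.90%). The cause was not tested. In the longer promoter of 1000 bases before to 100 after the TSS, YY1 letters were found in 5 of 35 promoters (14.3%, against 9.69% of all), CCAAT in 24 (68.6% against 81.2%) and TATAAA in 9 (25.7% against 49.7%). Other windows gave MOF at 20 to 22 genes (51.3% to 56.4%), with Hspd1, then Timm17b and Tomm70a, added to the same 19, against 27.4% to 30.7% of all genes. The inner blocks of the MOF regions, an alternative chosen after seeing the data like the GENCODE transcripts and the predicted opposite-strand partners, gave 17 genes (43.6% against 23.3% of all), without Grpel1 and Tomm6. No paired analysis was possible because the comparisons rest on 1 list for each target. The lists give neither read counts nor the spread between libraries, so an absent peak says only that none was called in that library.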
